A study of Mus musculus with 124 samples.

Results

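The polo-like kinases are a family of 5 mouse genes, Plk1, Plk2, Plk3, Plk4 and Plk5. They were read here in ovulated oocytes, blastocysts and the dorsal dentate gyrus (dDG) of adult offspring. The members were found by their exact symbols and are 5 of 35096 symbols over the 3 RNA tables: 5 of 26992 in the oocyte table, 5 of 25239 in the blastocyst table and 5 of 24384 in the dDG table. The family was chosen because Plk2 and Plk5 were higher in hCG than in Ctrl blastocysts and Plk5 was higher in hCG dDG. The differences of the 5 members between hCG and Ctrl in blastocysts and dDG are therefore given as descriptions, with no test, and the oocyte differences and the relations within a group are tested.

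Human chorionic gonadotropin (hCG) is the hormone given to trigger ovulation, and the study compared mice exposed to it with mice that were not (Ctrl). Females of the hCG group were in natural estrus and received 7.5 IU by intraperitoneal injection, with no priming by another gonadotropin. Oocytes were collected 14 h later, at metaphase II, while Ctrl females were kept with a vasectomised male and used the next morning if they had a vaginal plug. Mating and time since ovulation thus cannot be told apart from hCG in oocytes. Hyaluronidase removed the cumulus cells in both groups. Blastocysts of both groups were taken by uterine flushing at embryonic day 3.5. The dDG, the upper part of the granule cell region of the hippocampus, came from offspring 8 weeks old, anaesthetised with tribromoethanol and perfused with saline. The labels give no strain, no transgene and no sex of the offspring, and mark both groups by exposure alone. Each group had 6 libraries of oocytes, 28 of blastocysts and 6 of dDG. The labels do not say that replicates came from separate animals or embryos, so each p-value measures the spread between these samples, which may be technical.

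Most polo-like kinases have a kinase domain at one end and a polo-box region at the other, which in Plk1 docks the enzyme on partners that are already phosphorylated. Plk1 drives entry into mitosis, centrosome maturation and cytokinesis, and Plk4 starts the duplication of centrioles. Plk2 and Plk3 are rapidly induced by serum, stress and, through p53, DNA damage; in neurons Plk2 is induced by activity and lowers synaptic strength. Plk5 is the least studied member and has been described mainly in brain.

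The stretches before the gene starts of Plk2 and Plk5 are shown because these are the genes the family was chosen on, and 2 short stretches of Plk1 because its start region is a textbook example of cell cycle control. They come from RefSeq's promoter table (GRCm38.p6), which held a window of 300 bases, from 250 before to 50 after the gene start, for all 5 members. Motifs were searched on both strands over that window and are in capitals where they match. Positions are counted from the gene start, with -1 the base before it. The Plk2 and Plk5 stretches are the 200 bases before the start, chr13:110394844-110395043 and chr10:80356259-80356458, and the Plk1 stretches are chr7:122159405-122159434 and chr7:122159455-122159480, all on the plus strand.
Plk2, positions -200 to -1: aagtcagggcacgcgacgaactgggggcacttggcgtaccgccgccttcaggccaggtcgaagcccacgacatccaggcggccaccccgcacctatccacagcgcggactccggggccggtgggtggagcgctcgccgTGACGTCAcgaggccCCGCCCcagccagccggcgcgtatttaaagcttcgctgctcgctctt
Plk5, positions -200 to -1: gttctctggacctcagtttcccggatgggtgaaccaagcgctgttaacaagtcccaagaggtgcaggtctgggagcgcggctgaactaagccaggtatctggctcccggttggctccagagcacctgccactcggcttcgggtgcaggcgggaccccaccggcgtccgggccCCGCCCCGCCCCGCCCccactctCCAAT
Plk1, positions -30 to -1: ttttaaatccccgcggCCAATcagcaacgc
Plk1, positions 21 to 46: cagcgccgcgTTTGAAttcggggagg
The Plk2 window held the full cyclic AMP response element TGACGTCA at -62 to -55, which 1.79% of all 32851 windows held. It also held the GC box GGGCGG, in its minus strand form CCGCCC, at -47 and at -230, a motif in 35.7% of windows. In the Plk5 window CCGCCC stood 3 times in overlap, at -28, -23 and -18, with another GC box at -233, and the NF-Y box CCAAT (37.4% of windows) ended at -1. The Plk1 window held CCAAT at -14, TTTGAA, the element of cell cycle homology regions (17.9% of windows), at 31 to 36, and a GC box at -43. Plk3 held TGACG, the short form of that response element, (20.8% of windows) at -132 and -63 and a GC box at -78, and Plk4 held TGACG on the minus strand at -30. The E-box CACGTG (7.15% of windows), the TATA box TATAAA (13.6%) and the p53 half-site (8.36%) had no match in any of the 5 windows. These letters describe the windows, and no binding was measured.

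Libraries held 2375645 to 6910882 counts in oocytes, an estimated 3043231 to 10859378 reads in blastocysts and 14941552 to 17799935 expected counts in dDG. Levels are given as CPM, the value scaled to a column total of 1000000, and errors of CPM are SD. Of 9 oocyte markers 8 were in the oocyte table, with none at 0 (Gdf9 3992 ± 784 CPM in Ctrl, n = 6). Of the 8, 2 fell in hCG oocytes, Mos and Zp3, where 2.66% of all genes tested fell. The summed cumulus and granulosa markers reached at most 23.8 CPM, with Ptx3, Foxl2, Inha and Fshr at 0. Most of that sum was Cyp19a1, present in every oocyte library, at 13.12 to 21.89 CPM in Ctrl and 15.59 to 23.61 CPM in hCG. All blastocyst libraries held trophectoderm markers, with a summed level of at least 1713 CPM, and cumulus and granulosa markers summed to at most 4.27 CPM. In blastocysts the hCG libraries detected more genes, 13549 ± 335.0 against 12968 ± 798.3 in Ctrl (SD, n = 28), and 5 hCG libraries and 0 Ctrl libraries held both Xist and Y-linked transcripts above 50 CPM. In dDG the granule neuron markers were present in every library, and 1 library, hCG replicate 6, held choroid plexus markers at 9730 CPM against at most 106.5 CPM elsewhere. Every dDG library held Y-linked transcripts (108.4 to 129.6 CPM) and Xist at no more than 0.21 CPM, the pattern of male samples.

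The same gene had different levels in the 3 materials, whose tables were normalised separately, so that no test was made across them. The labels also name a different library method for dDG than for oocytes and blastocysts, so method and material cannot be told apart there. Plk4 was highest in oocytes (367 ± 25.97 CPM in Ctrl, n = 6), lower in blastocysts (41.8 ± 11.45, n = 28) and lowest in dDG (2.76 ± 0.42, n = 6), and the ranges of the 3 materials did not overlap. Plk1 was at 174.8 ± 44.21 CPM in Ctrl oocytes and 136.8 ± 65.25 in Ctrl blastocysts, 2 levels that lie within each other's spread, and at 0.957 ± 0.359 in Ctrl dDG. Plk2 ran the other way, from 1.77 ± 1.18 CPM in Ctrl oocytes through 20.26 ± 15.62 in Ctrl blastocysts to 173 ± 20.42 in Ctrl dDG, where only the oocyte and blastocyst ranges overlap. Plk5 was close to 0 in oocytes, at 3.42 ± 4.31 CPM in Ctrl blastocysts and at 61.77 ± 10.74 in Ctrl dDG, above every blastocyst library. Plk3 stayed between 4.76 ± 0.70 CPM in dDG and 7.82 ± 8.52 in blastocysts, with oocytes at 5.17 ± 3.46, and these 3 levels overlap.

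**Figure D1:**
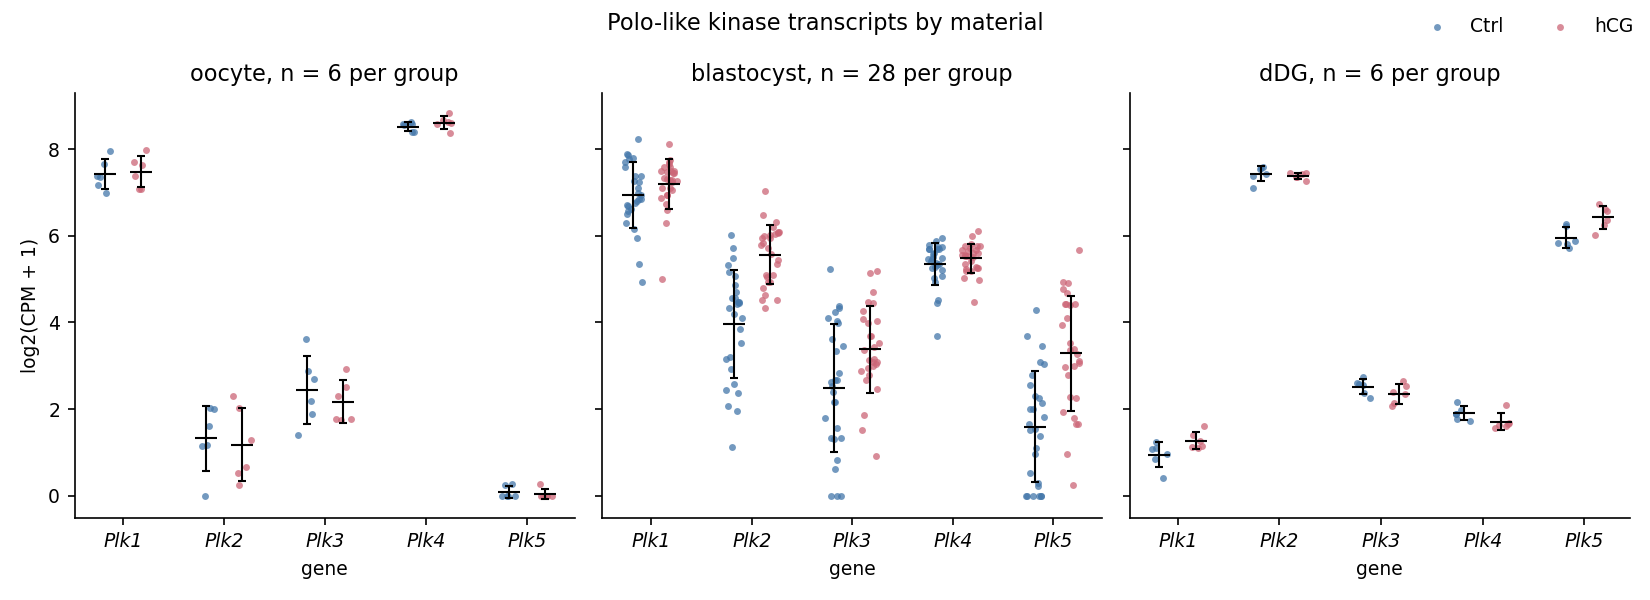
Each point is 1 library, drawn as log2(CPM + 1) by gene for oocytes, blastocysts and dDG, with Ctrl in blue, hCG in red, and black bars for mean and SD. Plk1 and Plk4 are high in oocytes and low in dDG, while Plk2 and Plk5 are low in oocytes and high in dDG.

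In oocytes no polo-like kinase passed the test of hCG against Ctrl. Of the 5 members, 3 passed the filter on low counts and 0 were called, where 3.99% of the 9551 genes tested were called in either direction (1.33% higher and 2.66% lower). Plk4 stood at 375.6, 333.4, 383.9, 383.6, 334.7 and 390.8 CPM in the Ctrl libraries and at 392.6, 328.0, 404.2, 456.4, 387.9 and 379.0 CPM in the hCG libraries. The groups overlap, although 3 hCG libraries lay above the highest Ctrl library, and the log2 fold change was 0.08 ± 0.11 (SE; edgeR adjusted p = 0.750). For Plk1, Ctrl libraries read 166.6, 162.1, 248.4, 125.5, 144.1 and 202.1 CPM and hCG libraries 133.8, 165.8, 249.5, 208.2, 134.7 and 198.9 CPM. Both groups cover the same range, with a log2 fold change of 0.05 ± 0.19 (edgeR adjusted p = 0.923).

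Plk3, the stress-induced member, ranged from 1.64 to 11.29 CPM in Ctrl and from 2.38 to 6.63 CPM in hCG oocytes, on a median of 17 and 16.5 counts. Its log2 fold change was -0.47 ± 0.44 (SE; edgeR adjusted p = 0.623). Plk2 and Plk5 did not pass the filter and were not tested. Plk2 had 50 counts over all Ctrl and 46 over all hCG oocyte libraries, with 0, 3, 21, 9, 6 and 11 counts per Ctrl library and 3, 2, 19, 6, 1 and 15 per hCG library. Plk5 had 2 counts in all Ctrl oocytes and 1 in all hCG oocytes, so a difference was not detectable at this depth. A related pseudogene, Plk-ps1, which could share reads with a family member, was listed in the oocyte table and held 3 counts in all 12 libraries.

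The listed genes that work with the kinases did not pass the test in oocytes, where 3.99% of all genes tested were called. Of the partners and substrates of Plk1 in mitosis, 0 of 30 tested rose and 0 fell (median log2 fold change 0.02, against 0.01 over all genes tested). For centriole duplication the count was 0 of 19 (median 0.08), for p53 targets beside Plk2 and Plk3 0 of 11 (0.02), for synaptic substrates of Plk2 0 of 10 (0.15) and for activity and serum induced genes 0 of 11 (-0.20). At an unadjusted p under 0.05, 1803 of the 9551 genes passed. Ccnb1, the cyclin that activates Cdk1, was at 2126 ± 430.9 CPM in Ctrl and 1904 ± 427.5 in hCG (SD, n = 6; edgeR adjusted p = 0.669). Bub1b, a spindle checkpoint kinase, was at 1702 ± 299 and 1592 ± 240.5 CPM (edgeR adjusted p = 0.746). Pcnt, a centrosome scaffold, read 219.5 ± 69.27 CPM in Ctrl and 175 ± 32.99 in hCG (edgeR adjusted p = 0.348), and Cenpj, a centriole growth factor, 171 ± 30.60 and 175 ± 13.72 (edgeR adjusted p = 0.934). Btg2, an antiproliferative gene induced by p53 and by serum, read 62.78 ± 16.76 CPM in Ctrl and 40.43 ± 8.23 in hCG oocytes, 6 of 6 of the latter under the Ctrl median, with edgeR adjusted p = 0.0796. That p lay between 0.0164 and 0.172 over 16 alternatives and passed the threshold in 3 of them: DESeq2 (0.0306), without Ctrl replicate 4 (0.0164) and without Ctrl replicates 2 and 4 together (0.0351).

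In blastocysts, libraries of the hCG group held more Plk2 and Plk5 than most Ctrl libraries, while Plk1 and Plk4 largely overlapped. These are the values the family was chosen on. Over all 10850 genes tested 16.2% were called, 8.68% higher and 7.57% lower in hCG. Plk2 ran from 1.17 through a median of 19.83 to 63.42 CPM in Ctrl and from 19.23 through 52.96 to 130.9 CPM in hCG (n = 28 each). There were 27 of 28 hCG libraries above the Ctrl median, 8 above the highest Ctrl library, and 13 Ctrl libraries below the lowest hCG library. The means were 20.26 ± 15.62 and 51.60 ± 24.82 CPM, a difference of 1.57 ± 0.26 (SE) on the log2(CPM + 1) scale, which understates changes of low genes.

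Plk5 ran from 0 through a median of 2.04 to 18.42 CPM in Ctrl, where 6 of 28 libraries held none, and from 0.193 through 8.98 to 50.05 CPM in hCG, where 0 libraries were at 0. The Ctrl median was exceeded by 26 of 28 hCG libraries and the highest Ctrl library by 9. The median Ctrl library had 12 Plk5 reads and the median hCG library 43, so that counting error is large in Ctrl. The difference was 1.66 ± 0.33 (SE) on the log2(CPM + 1) scale, from 3.42 ± 4.31 to 12.95 ± 11.56 CPM.

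Plk3 ran from 0 through a median of 5.02 to 36.84 CPM in Ctrl and from 0.899 through 8.61 to 35.38 CPM in hCG, and 24 of 28 hCG libraries lay above the Ctrl median. The highest library was a Ctrl one, and the difference was 0.89 ± 0.32 on the log2(CPM + 1) scale. Plk1 ran from 29.57 through 117.7 to 300.9 CPM in Ctrl and from 30.87 through 156.1 to 277.1 CPM in hCG. The ranges nearly coincide, 23 of 28 hCG libraries were above the Ctrl median, and the difference was 0.23 ± 0.16. Plk4 ran from 11.83 through 43.24 to 60.59 CPM in Ctrl and from 21.25 through 45.57 to 68.18 CPM in hCG, a difference of 0.09 ± 0.11. As a percentage of the mean, the SD in Ctrl was 27.4% for Plk4 and 47.7% for Plk1, but 77.1% for Plk2, 109% for Plk3 and 126% for Plk5.

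**Figure D2:**
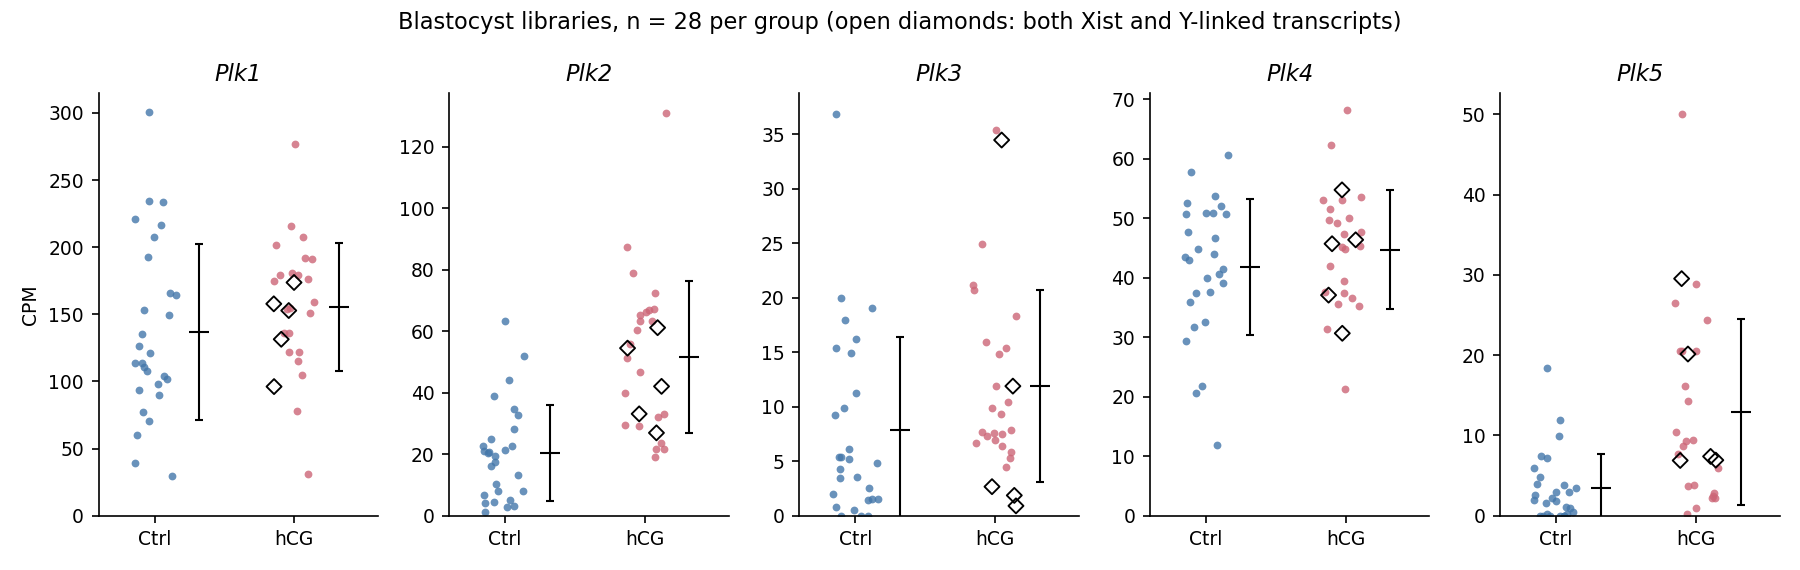
CPM of each polo-like kinase in every blastocyst library (n = 28 per group), with mean and SD beside the points (bars end at 0 where the SD exceeds the mean) and open diamonds for the 5 hCG libraries with both Xist and Y-linked transcripts. Plk2 and Plk5 reach higher values in hCG, with 8 and 9 libraries above every Ctrl library. The diamonds lie among the other hCG points except for Plk3, where replicates 1, 3 and 22 (0.899, 1.86 and 2.66 CPM) are the lowest hCG points.

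The number of genes detected, which was higher in hCG blastocysts, touched some of these values. With it as a covariate the log2 differences were 1.66 for Plk2 and 1.64 for Plk5, 0.53 for Plk3, and -0.04 for Plk1 and -0.01 for Plk4. Without the 5 libraries that held Xist and Y-linked transcripts they were 1.62 for Plk2, 1.59 for Plk5 and 1.06 for Plk3. Cell type markers are set beside 16.2% of all genes called. Of 8 trophectoderm markers 0 rose and 2 fell, Eomes from 72.32 ± 45.40 to 43.65 ± 21.69 CPM and Gata2 from 56.57 ± 18.53 to 35.75 ± 19.44 CPM, with none of the 8 at 0. Without a call, the means of Gata3 (1333 ± 653.8 to 1633 ± 441.9 CPM) and Tfap2c (48.51 ± 19.67 to 64.04 ± 27.79 CPM) were higher in hCG. Those of Elf5, Krt8 and Krt18 were lower, and Cdx2 was level. The summed level of the 8 was 1713 to 11940 CPM in Ctrl and 2204 to 8520 CPM in hCG. Nanog, an inner cell mass factor, was the 1 of 7 such markers that rose (160 ± 85.97 to 242.5 ± 121.9 CPM). Without a call, the mean of Pou5f1 was higher in hCG and those of Sox2, Fgf4, Klf2, Esrrb and Tdgf1 were lower. The summed level of the 7 ran from 140.1 to 728.6 CPM in Ctrl and from 171.7 to 774.9 CPM in hCG. Of 7 primitive endoderm markers 1 rose, Amn (1.24 ± 1.81 to 3.86 ± 3.58 CPM), and 1 fell, Lama1 (30.31 ± 30.65 to 11.96 ± 9.58 CPM). The means of the other 5 were lower in hCG without passing the test, such as Sox17 at 7.26 ± 12.69 and 2.71 ± 3.93 CPM, and the 7 summed to 71.87 to 496.8 CPM in Ctrl and 81.99 to 238.3 CPM in hCG, with none at 0. Of the 9 uterine, stromal and blood markers 3 were tested and 1, H2-Ab1, rose, with sums of 5.68 to 137.9 CPM in Ctrl and 7.07 to 215.9 CPM in hCG. Col3a1 and Hbb-bs were at 0 in both groups. Hba-a1, another globin gene, was not: it read 8.93 ± 21.67 CPM in Ctrl (at most 116.5) and 12.38 ± 30.51 CPM in hCG (at most 164). The part of all these cell type markers in the differences of the kinases was not tested. In bulk samples fewer cells of a type and less RNA per cell cannot be told apart.

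Several targets of p53 other than Plk2 and Plk3 rose in hCG blastocysts: 10 of 18 tested were called higher and 0 lower by limma, where 8.68% of all genes were called higher. The list's median log2 difference was 0.50, against 0.02 over all genes tested. The list was chosen with earlier results of these data known, so its count is a description and not independent support. The 10 genes were Bax, Btg2, Ccng1, Cdkn1a, Fas, Mdm2, Perp, Phlda3, Rbm38 and Tap1. Cdkn1a, the cyclin-dependent kinase inhibitor p21, rose by 1.00 ± 0.21 (SE) from 162 ± 89.17 to 302 ± 153 CPM (n = 28; limma adjusted p = 0.00124). Bax, a pore-forming cell death factor, rose from 92.88 ± 47.35 to 159.5 ± 36.54 CPM, with 28 of 28 hCG libraries over the median of Ctrl (limma adjusted p = 0.000296). Rbm38, an RNA-binding regulator of p21 messages, rose from 32.88 ± 19.07 to 82.49 ± 41.57 CPM (limma adjusted p = 0.000133), and Tap1, a peptide transporter, from 5.24 ± 4.98 to 11.27 ± 5.34 CPM (limma adjusted p = 0.000771). With the genes-detected covariate the count was 7 of 18, and without the 5 libraries named above it was 9 of 18.

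Genes around Plk1 and Plk4 are set beside 16.2% of all blastocyst genes called. Of 30 partners and substrates of Plk1, 1 rose and 3 fell, a share near that of all genes (median -0.05, which turned to 0.39 without scaling). Gtse1, a microtubule-binding Plk1 substrate, rose from 67.19 ± 30.17 to 90.87 ± 29.10 CPM (limma adjusted p = 0.0242). Tpx2, the spindle activator of Aurora A, fell from 178 ± 42.25 to 138 ± 28.69 CPM, Wee1, the kinase that holds Cdk1 inactive, from 26.07 ± 6.76 to 18.69 ± 6.27 CPM, and Cdk1 from 252.6 ± 66.96 to 205 ± 49.80 CPM. Their limma adjusted p-values were 0.00452, 0.00535 and 0.0222 (n = 28). The calls of Gtse1 and Wee1 were lost with the genes-detected covariate (adjusted p = 0.376 and 0.0900), and that of Cdk1 without the 5 libraries (adjusted p = 0.0885) and with no TMM factor (0.0512). Without scaling the calls of Tpx2, Wee1 and Cdk1 were lost (adjusted p = 0.841, 0.590 and 0.652). Of 20 centriole duplication genes 0 rose and 1 fell (median -0.10, which turned to 0.44 without scaling): Cep192, the scaffold that recruits Plk4, read 24.66 ± 6.25 against 35.26 ± 12.48 CPM, with 28 of 28 hCG libraries under the median of Ctrl (limma adjusted p = 0.00745, 0.122 with the covariate and 0.715 without scaling).

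The calls in both lists below are set beside 8.68% of all blastocyst genes tested called higher and 7.57% lower. Of 10 tested synaptic substrates of Plk2, 0 rose and 3 fell in blastocysts (median -0.27, which turned to 0.15 without scaling). They included Pdlim5, a cytoskeletal adaptor (72.18 ± 18.67 to 52.19 ± 15.71 CPM; limma adjusted p = 0.00149), and Rap1b, a small GTPase of cell adhesion (87.84 ± 23.32 to 72.37 ± 17.32 CPM; limma adjusted p = 0.0397), both expressed outside neurons too. The call of Rap1b was lost in 5 of 9 alternatives: with the covariate (adjusted p = 0.140), with the replicate block (0.0623), with no filter (0.0603), with no TMM factor (0.0708) and without scaling (0.487). That of Pdlim5 was lost without scaling (adjusted p = 0.758). Of 10 activity and serum induced genes, Btg2 rose from 73.71 ± 54.25 to 134.9 ± 129.8 CPM (limma adjusted p = 0.0282), and Homer1, a synaptic scaffold, fell from 9.73 ± 3.75 to 6.21 ± 2.59 CPM (0.00951). The covariate ended both calls (adjusted p = 0.0830 and 0.0696), and that of Homer1 was also lost without scaling (adjusted p = 0.330). Btg2 is counted among the p53 targets as well.

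Within each group of blastocysts, libraries with more Plk2 tended to hold more Cdkn1a. These relations do not use the difference between groups. Each group mixed libraries with Xist and libraries with Y-linked transcripts. Ctrl replicates 27 and 19 (63.42 and 51.81 CPM of Plk2, 369.8 and 321.4 CPM of Cdkn1a) held Xist, at 323.8 and 300.3 CPM. Ctrl replicate 11 (44.05 CPM of Plk2, 268.9 CPM of Cdkn1a) held Y-linked transcripts, at 221.1 CPM. The part of sex in these relations was not tested. Over the 28 Ctrl libraries Pearson's r was 0.728 and Spearman's rho 0.781 (permutation test, 2-sided, p = 1e-05 for each, the smallest that 100000 resamples can give; adjusted p = 0.0004 over the 40 relations computed). Over the 28 hCG libraries r was 0.709 (permutation p = 2e-05, adjusted 0.0004) and rho 0.608 (permutation p = 0.00074, adjusted 0.0123). Without the 2 libraries farthest from the median of Plk2, r was 0.799 in Ctrl and 0.551 in hCG. In the 23 hCG libraries left after taking out those with Xist and Y-linked transcripts, r was 0.771 and rho 0.639.

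Plk3 followed Cdkn1a in Ctrl blastocysts, with r = 0.575 (permutation p = 0.00105, adjusted 0.0140) and rho = 0.608 (permutation p = 0.00092, adjusted 0.0123), and r = 0.580 without the 2 farthest libraries. In hCG blastocysts the values were r = 0.223 and rho = 0.102 (permutation p = 0.253 and 0.603, adjusted 0.414 and 0.779). The difference between the groups was not tested. Plk5 and Cdkn1a gave r = 0.263 in Ctrl and 0.366 in hCG, neither past the threshold (permutation p adjusted 0.343 and 0.131). These 3 relations, Plk2 with Cdkn1a in both groups and Plk3 with Cdkn1a in Ctrl, were the ones past 0.05 by both r and rho among the 40.

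Among the members themselves no pair passed by both measures. Plk1 and Plk4 gave r = 0.541 in Ctrl and 0.504 in hCG (permutation p adjusted 0.0234 and 0.0468), but rho was 0.414 and 0.361 (adjusted 0.148 and 0.228), and r fell to 0.0913 and 0.242 without the 2 farthest libraries, so the relation rests on those. Plk2 and Plk3 gave r = 0.503 and rho = 0.509 in Ctrl (permutation p adjusted 0.0324 and 0.0627). Plk1 and Plk3 gave r = 0.478 and rho = 0.371 in Ctrl (permutation p adjusted 0.0398 and 0.228), and r was 0.290 without the 2 farthest libraries. Plk1 also followed the number of genes detected by r (0.555 in Ctrl and 0.524 in hCG, permutation p adjusted 0.0234 for each), as did Plk4 in hCG (0.566, adjusted 0.0160), but not by rho. For Plk2 and Plk5 r with the number of genes detected lay between -0.0773 and 0.228.

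**Figure D3:**
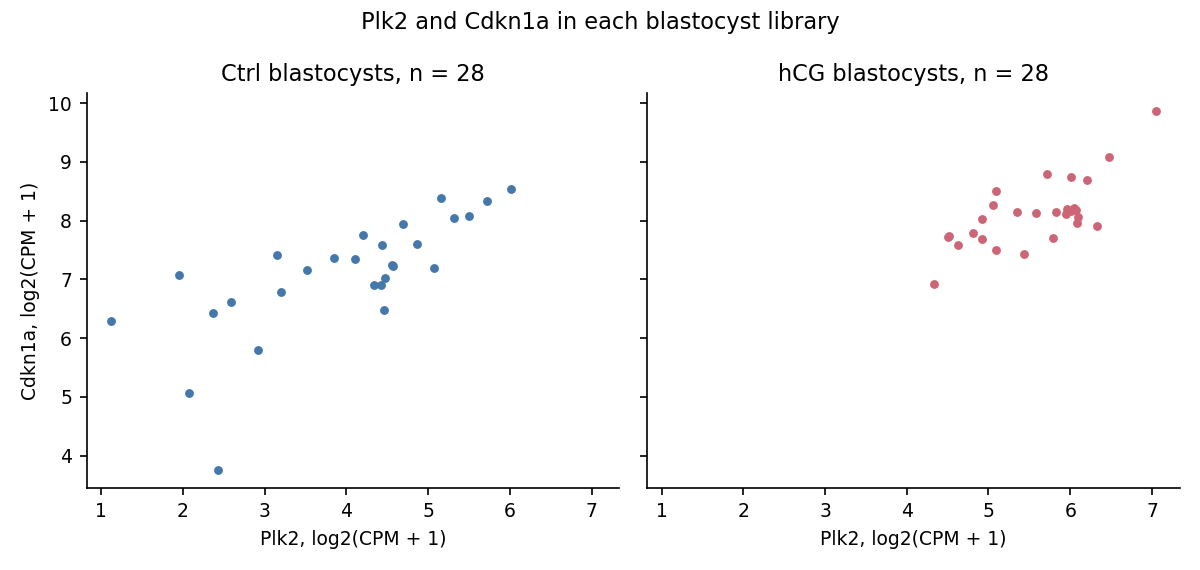
Plk2 against Cdkn1a in each of the 28 Ctrl and 28 hCG blastocyst libraries, both as log2(CPM + 1). The points rise together in both groups (r = 0.728 and 0.709), and hCG points lie farther to the right.

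**Figure D4:**
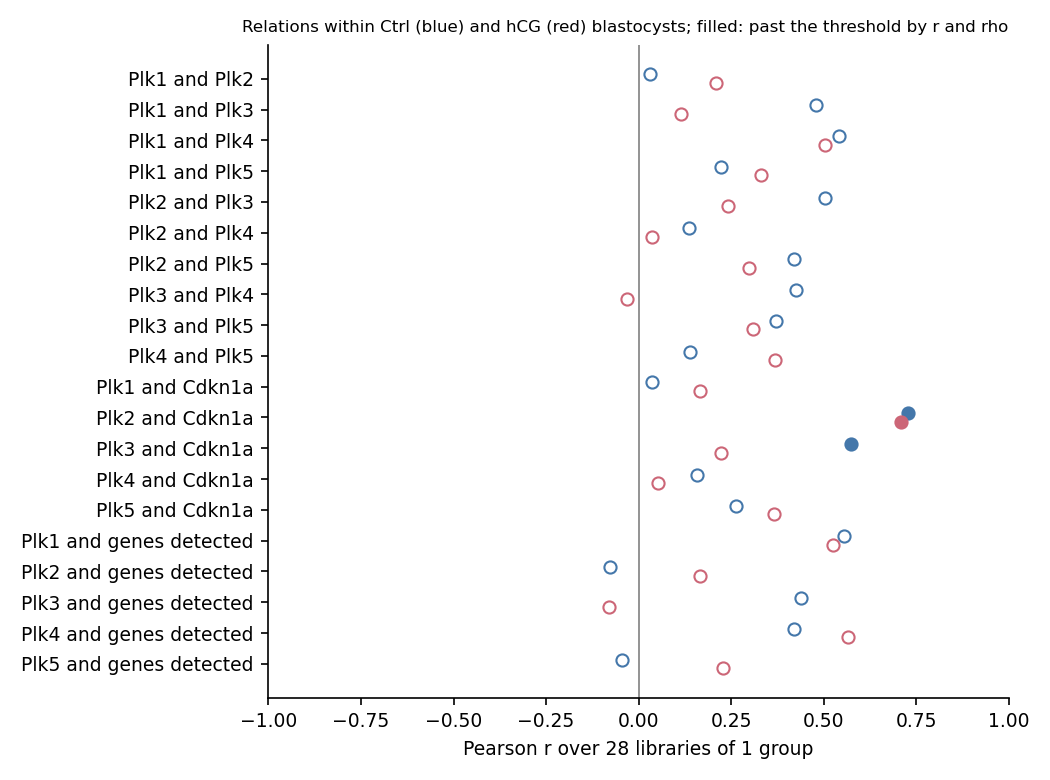
Pearson's r over 28 blastocyst libraries for each pair of polo-like kinases, each kinase with Cdkn1a, and each kinase with the number of genes detected, in Ctrl (blue) and hCG (red). The 3 filled points passed the threshold by both r and rho.

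Over all 56 blastocyst libraries, with each group's mean removed, the genes whose pattern was most like each kinase differed from member to member. The measure was Spearman's rho against 9194 tested genes with a mean of at least 5 CPM, described with no test. Libraries share depth and the number of genes detected, and so do these coefficients. For Plk1 the closest were Ccnf, a cyclin (0.874), Cdca2, a mitotic chromatin protein (0.815), and the mitotic kinase Aurkb (0.803). For Plk2 they were 1700003M07Rik (0.740), Cdkn1a (0.715) and Btg2 (0.700). Plk3 was closest to Sqstm1, an autophagy receptor (0.706), Eng, a TGF-beta coreceptor (0.645), and Bsdc1 (0.642), and Plk4 to the endosomal GTPase Rab14 (0.643), Mboat7, a phospholipid acyltransferase (0.641), and Surf4, an endoplasmic reticulum cargo receptor (0.616). Plk5 was closest to Stac2, an adaptor of calcium channels (0.687), Gulo, an enzyme of vitamin C synthesis (0.687), and Isyna1, which makes inositol phosphate (0.677). No member was among the 3 closest genes of another: Plk3 ranked 203 and Plk5 267 for Plk2. For Plk5, Plk3 ranked 302, and for Plk3, Plk5 ranked 428 (rho 0.415). Plk4 ranked 1191 for Plk1, and Plk1 ranked 425 for Plk4 (rho 0.413).

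In dDG the mean level of Plk5 and, at a few reads per library, that of Plk1 was higher in hCG, Plk4 was lower in most hCG libraries, and Plk2 and Plk3 overlapped between the groups. Plk5 stood at 51.57, 54.81, 73.90, 57.39, 76.81 and 56.14 CPM in the Ctrl libraries and at 64.03, 75.01, 94.46, 97.45, 81.77 and 104.8 CPM in the hCG libraries. The groups overlap at hCG replicates 1 and 2, while 4 of 6 hCG libraries lie above every Ctrl library. This is a value the family was chosen on, and the log2 fold change was 0.49 ± 0.13 (SE), between 0.43 and 0.56 when any 1 library was left out. Over all 13853 genes tested 7.86% were called in hCG dDG, 4.66% higher and 3.2% lower.

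Plk2, the member induced by neuronal activity, stood at 137.2, 165.4, 171.2, 187.5, 186.4 and 191.8 CPM in Ctrl dDG and at 170.9, 173.6, 153.4, 173.7, 163.3 and 163.1 CPM in hCG dDG. Every hCG library lay inside the Ctrl range and below the Ctrl median of 178.8 CPM, and the log2 fold change was -0.04 ± 0.07 (SE). Plk2 had a higher level in hCG blastocysts and not in hCG dDG, though the difference between the materials was not tested. Plk1 was barely present, with 0.335 to 1.37 CPM in Ctrl and 1.13 to 2.06 CPM in hCG, on a median of 17.5 and 22.5 reads. All 6 hCG libraries lay above the Ctrl median of Plk1 and 3 above its highest Ctrl library, with a log2 fold change of 0.59 ± 0.29 (SE). Plk3 ranged from 3.78 to 5.74 CPM in Ctrl and from 3.17 to 5.24 CPM in hCG (-0.18 ± 0.16). Plk4 ranged from 2.30 to 3.48 CPM in Ctrl and from 1.95 to 3.30 CPM in hCG (-0.25 ± 0.18), with 5 of 6 hCG libraries below the lowest Ctrl library. Of the family, Plk4 alone had several transcripts in the dDG table, 3, of which 1 held 484 of its reads and the others 19.3 and 2.47.

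Calls of cell type markers in dDG are set beside 7.86% of all genes called, 4.66% higher and 3.2% lower. The summed level of granule neuron markers was 1210 to 1810 CPM in Ctrl and 1556 to 1957 CPM in hCG, with none of the 8 at 0. Within Ctrl the order of this sum was close to that of Plk5. Ctrl replicate 1 was lowest in both (1210 and 51.57 CPM) and replicate 5 highest (1810 and 76.81 CPM). Within hCG, replicate 4 had 1957 and 97.45 CPM, while replicate 1 had 1738 CPM of markers and the lowest Plk5, 64.03 CPM. Across the groups the order differed: hCG replicate 3 had 1693 CPM, less than Ctrl replicate 5, with Plk5 higher, at 94.46 CPM. Of the 8, Prox1 (118 ± 14.25 to 149 ± 20.10 CPM) and Rfx3 (226 ± 14.02 to 254 ± 14.08 CPM) rose and Trpc6 fell (50.72 ± 6.88 to 38.88 ± 4.80 CPM) by edgeR. The means of Dsp (310.6 ± 81.42 to 403.3 ± 67.27 CPM), Calb1 (314.2 ± 60.57 to 386.5 ± 24.36 CPM) and C1ql2 (87.24 ± 14.44 to 97.64 ± 17.41 CPM) were also higher in hCG. Stxbp6 read 374 ± 52.51 and 383.5 ± 41.67 CPM, and Tdo2 13.32 ± 1.86 and 13.05 ± 4.18 CPM. Oligodendrocyte markers summed to 1183 to 2865 CPM in Ctrl and 1101 to 2560 CPM in hCG, and 0 of 6 passed the test. Microglial markers summed to 221.5 to 282.1 CPM in Ctrl and 254.6 to 323.7 CPM in hCG, with 3 of 6, C1qa, C1qb and Tmem119, higher. Pyramidal neuron markers (0 of 7 called) and astrocyte markers (0 of 6) overlapped between the groups. The part of these cell types in the Plk5 level was not tested. Without hCG replicate 6, the library with choroid plexus markers and the highest Plk5, the remaining hCG libraries ran from 64.03 to 97.45 CPM.

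**Figure D5:**
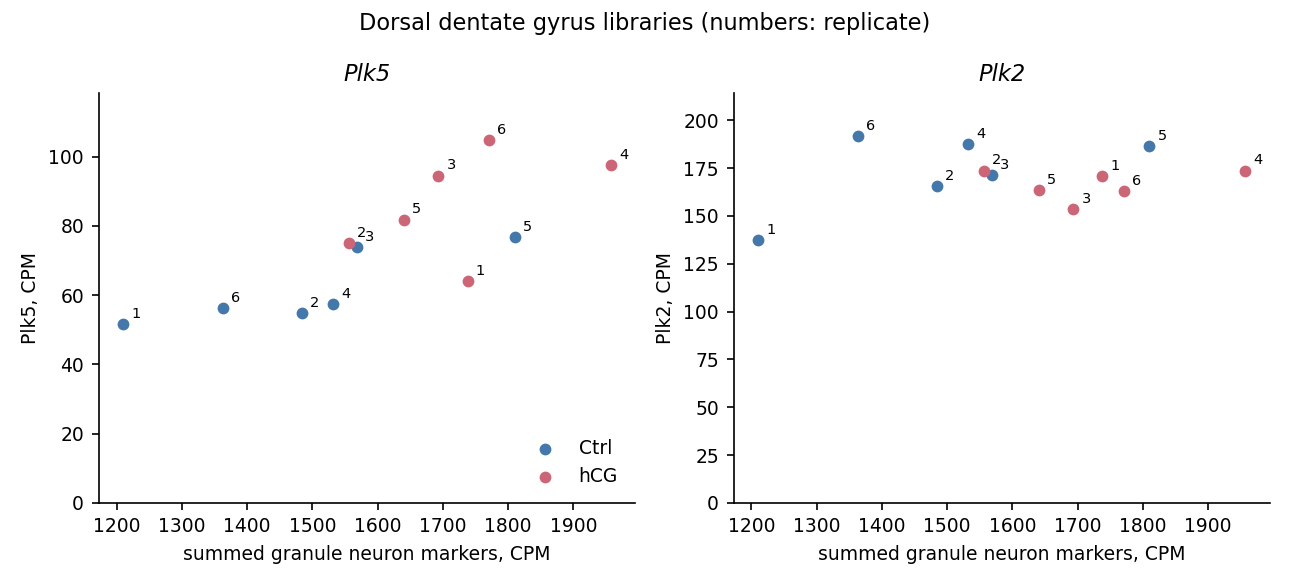
Plk5 (left) and Plk2 (right) in CPM against the summed CPM of 8 granule neuron markers in each dDG library (Ctrl blue, hCG red, numbers give the replicate). For Plk5, 4 hCG libraries lie above every Ctrl library and the granule marker sums of hCG libraries start higher, at 1556 against 1210 CPM, while for Plk2 the hCG points fall inside the Ctrl range.

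Activity and serum induced genes, the class in which Plk2 and Plk3 are placed, were lower in hCG dDG: of 26 tested 1 rose and 12 fell by edgeR, where 3.2% of all genes fell. Their median log2 fold change was -0.51, against 0.00 over all genes tested. This list too was chosen with earlier results of these data known, so its count is a description. The genes that fell were Arc, Egr1, Egr2, Egr4, Fos, Fosb, Gadd45b, Junb, Npas4, Nr4a1, Nr4a2 and Per1, and the one that rose was Fosl2. Npas4, a transcription factor specific to neuronal activity, fell from 18.98 ± 2.19 to 9.18 ± 2.09 CPM (n = 6; edgeR adjusted p = 0.000562). Egr4 fell from 19.81 ± 1.22 to 10.84 ± 0.92 CPM (adjusted p = 5.71e-05), Junb from 66.07 ± 5.97 to 42.89 ± 5.47 CPM (adjusted p = 0.000689), and Gadd45b from 15.49 ± 1.70 to 9.34 ± 1.26 CPM (adjusted p = 0.000963). For each of these 4, all 6 hCG libraries were under the median of Ctrl. With 1 library left out 10 to 12 of the 26 fell (11 without hCG replicate 6), and 9 with the replicate block.

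The other 4 pathway lists in dDG are set beside 7.86% of all genes called. Of 16 synaptic substrates of Plk2 0 rose and 0 fell (median -0.04), with Nsf, which recycles membrane fusion complexes, at 1815 ± 59.08 and 1797 ± 76.18 CPM, and Dlg4, the postsynaptic scaffold PSD-95, at 960 ± 29.02 and 999.9 ± 75.99 CPM. DESeq2 called 0 higher and 2 lower among the 16. Of 20 p53 targets 0 rose and 1, Sesn2, a stress sensor, fell (17.31 ± 1.26 to 13.74 ± 1.67 CPM; edgeR adjusted p = 0.0452), a call lost in 12 of 15 alternatives. Of 18 tested Plk1 partners, Racgap1, a cytokinesis regulator, rose from 7.92 ± 1.21 to 12.36 ± 1.54 CPM (adjusted p = 0.00494) and Tpt1, a Plk1 substrate, from 338.5 ± 23.62 to 387 ± 19.81 CPM (adjusted p = 0.0240), and 0 fell. The Tpt1 call was lost without Ctrl replicate 3 or 6 or hCG replicate 4 and with the replicate number as a block (adjusted p at most 0.0581). Of 18 centriole duplication genes 0 rose and 1 fell, Btrc, part of the ligase that marks Plk4 for destruction (131.8 ± 6.70 to 111.5 ± 5.33 CPM; edgeR adjusted p = 0.0130).

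By position (GRCm38.p6), Plk1 lies on chromosome 7 (122159435 to 122169884), Plk2 on chromosome 13 (110395044 to 110400844), Plk3 on chromosome 4 (117128655 to 117133963), Plk4 on chromosome 3 (40799951 to 40816883) and Plk5 on chromosome 10 (80356459 to 80365489). The 5 genes are thus on 5 different chromosomes.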

How the data were processed

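The deposited oocyte table holds counts per gene symbol and the deposited dDG table expected counts per transcript, which were summed per symbol and rounded. The deposited blastocyst table holds a signal: counts times a library-specific factor, the basis of which is not given in the sources used here. Of a library's deposited signal values, 93.92% to 97.27% were whole multiples (tolerance 0.005) of a step of 39.29 to 244.49, and division by it gave estimated reads. That share includes values of 0, which always count as whole multiples, so it is lower among values above 0. The submitters' processing notes name STAR 2.7.6a, HTSeq 0.12.4, TopHat and Bowtie2 with mm10 and GRCm38, not which made which table. Names turned into dates (23 in oocytes, 25 in dDG; 0.169% and 0.324% of counts) were left out.

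For oocytes and dDG, edgeR 4.0.16 was run on the counts (quasi-likelihood, TMM; filter of 10 counts, 15 in total) in R 4.3.3, and blastocysts with limma 3.58.1 on log2 of TMM-scaled CPM plus 1. P-values were 2-sided, adjusted by Benjamini-Hochberg over a whole table, with a threshold of 0.05. The scripts were tested on simulated data. DESeq2 1.42.0, other filters, pseudocounts and scalings, left-out libraries and a replicate block were alternatives. Relations used SciPy 1.17.1. Named genes were the 5 members, the called genes of each pathway list, at most 4 in order of p (or its 2 most abundant genes if it had no call) and the 3 closest in pattern to each member; list counts of all called genes, markers and the genes of each count are named besides. Members and lists were chosen with earlier results of these data known. The 44 bisulfite samples of 124 were not analysed here. The values of 1 listed gene are not reported here.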

Additional observations from a re-analysis of the deposited data

Results flagged for a closer look

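Plk4 in dDG was flagged for 1 library far from the others of its group: hCG replicate 2 held 3.30 CPM (57 reads), against 2.20 CPM in the next library, and its gap was 0.815 of the group's range. Plk5 in oocytes was flagged in the same way for hCG replicate 6, at 0.203 CPM, which is 1 read, with the other 5 libraries at 0. These were 2 of 20 groups of 6 libraries examined. A lone read among libraries at 0 is always flagged by this rule, so the count cannot be set beside a chance rate.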

How the results depend on the processing

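Plk2 and Plk5 kept their direction in blastocysts under all 9 alternatives (Plk2 1.28 to 2.12, Plk5 0.94 to 4.28 on the log2 scale), as did Plk5 in dDG under all 15. Depth limits Plk2, Plk3 and Plk5 in oocytes and Plk1 in dDG. In oocytes 127 genes were higher and 254 lower: 264 and 427 with DESeq2, 69 to 292 and 166 to 363 with 1 library left out (292 without Ctrl replicate 4), and 269 higher without Ctrl replicates 2 and 4. Plk1 in oocytes turned to -0.087 in that last setting, and ranged from -0.084 to 0.169 with 1 library left out; Cenpj ranged from -0.039 to 0.112 and Rbm38 from -0.206 to 0.028. In blastocysts 942 were higher and 821 lower. Without scaling the median of all genes moved to 0.49, with 3655 higher (99.6% of calls, against 53.4%) and 15 lower, Plk3 at 2.31, Plk4 at 0.53 and Plk5 at 4.28; Tpx2, Cdk1 and Rap1b turned to 0.043, 0.114 and 0.137. On estimated reads edgeR called 576 higher (37.2% of calls), with the covariate 337 were higher and 437 lower, and without the 5 libraries 480 were lower. In dDG 646 were higher and 443 lower: 710 lower with DESeq2, 369 to 683 and 267 to 547 with 1 library left out (369 without Ctrl replicate 6, 267 without Ctrl replicate 3). Nsf in dDG turned to -0.003 with DESeq2, -0.001 with no filter and ranged from -0.016 to 0.019 with 1 library left out. The cause of these shifts was not tested.

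Replicate numbers did not pair the samples: same-numbered libraries correlated over 0.1 in 2 of 6 oocyte, 3 of 28 blastocyst and 1 of 6 dDG pairs. With the replicate block 119 oocyte genes were higher and 216 lower, 850 and 689 in blastocysts, and 387 and 197 in dDG, and 2 of 6 oocyte, 1 of 28 blastocyst and 0 of 6 dDG numbers matched best with their own.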
